A study of Rattus norvegicus with 54 samples.

Results

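The genes described here encode enzymes of the tricarboxylic acid (TCA) cycle, of branched-chain amino acid oxidation and of ketone body oxidation. They are 36 genes listed by name, 16 for the cycle and the aspartate transaminases and malate dehydrogenases tied to it, 17 for branched-chain amino acids and 3 for ketones, and all 36 were found by symbol among the 40319 genes counted in each library. The cycle set was Cs, Idh2, Idh3a, Idh3b, Idh3g, Ogdh, Dlst, Dld, Sucla2, Suclg1, Suclg2, Fh, Mdh1, Mdh2, Got1 and Got2. The branched-chain set was Bcat2, Bckdha, Bckdhb, Dbt, Bckdk, Ivd, Mccc1, Mccc2, Auh, Hibch, Hibadh, Acadsb, Acad8, Pcca, Pccb, Mmut and Aldh6a1, and the ketone set was Oxct1, Bdh1 and Acat1. All 36 passed the filter on low counts in every comparison. Poly(A) RNA of the left ventricle was sequenced in 54 libraries from 18 athymic female rats (F344/NJcl-rnu/rnu), 8 weeks old, 1 week after surgery. Sham animals were operated on without coronary ligation, MI animals had a permanent proximal ligation of the left anterior descending artery and no treatment, and Cell sheet animals had the same ligation followed by a bi-level sheet of human endothelial progenitor cells and human smooth muscle cells laid on the ischemic epicardium. Each of the 3 treatments held 6 animals, and each animal gave tissue from the infarct zone (anterior wall), the border zone (lateral wall) and the remote zone (septum). All 18 animals lacked a thymus, which permits human grafts, so that no group shows infarct healing with a normal T cell compartment. In the sample labels the 6 libraries of each group are technical replicates, whereas the study's methods describe 6 hearts per group, and p-values here measure the spread between these libraries, whichever it is.

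As background, the heart meets nearly all of its energy demand by mitochondrial oxidation. Fatty acids, glucose, amino acids and ketones are broken down to acetyl-CoA or to cycle intermediates, and the TCA cycle oxidizes these to supply electrons to the respiratory chain. Branched-chain amino acids are transaminated and then committed to oxidation by the branched-chain ketoacid dehydrogenase complex, which its kinase Bckdk inhibits. Ketone bodies taken up from blood are activated in mitochondria by Oxct1, a step that the liver lacks.

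In untreated infarction the transcripts of all 3 pathways were lower than in sham tissue in every zone, with the largest median difference in the infarct zone and the smallest in the septum. With the cell sheet, 0 members passed the test against untreated MI in the infarct or border zone, and 19 members were higher than in untreated MI in the remote zone. There the median over the members stood at 57.1% of the sham level in MI animals and at 97.3% in Cell sheet animals. The plot of pathway levels shows both patterns, together with 2 animals that stood apart from their groups.

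**Figure D1:**
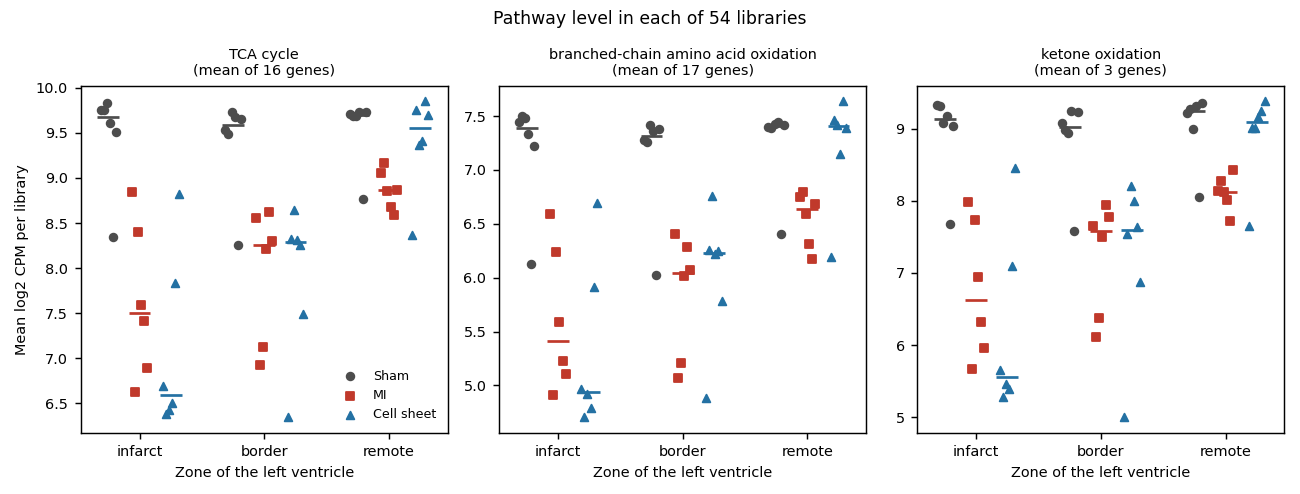
Mean log2 CPM (CPM are counts scaled to a common library size by TMM factors) over the genes of each pathway, in each of 54 libraries; the x axis gives the zone, colours and symbols give the treatment and lines mark group medians. In the remote zone the cycle level was 8.58 to 9.16 in MI animals, and 1 Cell sheet animal (8.37) and 1 Sham animal (8.77) lay with them.

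Sham animal 5 held the lowest value of its group for 36 of 36 members in each of the 3 zones. Its macrophage marker score (mean log2 CPM of 8 genes) was 7.64 in the infarct zone, against 4.95 to 5.69 in the other 5 sham animals, and its cardiomyocyte marker score (10 genes) was 11.03 against 12.33 to 12.72. Cell sheet animal 1 was lowest for 36 of 36 members in the remote and the border zone. In its border library the contractile genes that define cardiomyocytes were almost gone, with Myh6 at 12.6 CPM against 116 to 5422 CPM in the other 5 animals and Tnni3 at 13.6 against 800 to 3255 CPM, so that this library did not look like myocardium. Its remote library had a myofibroblast score of 9.59, against 5.36 to 7.02 in the other 5. Each comparison below was therefore also computed without the animal in question. Counts on genes ranged from 12699204 to 23397754 per library, and the lowest count of any member in any library was 165. In these bulk samples, fewer cardiomyocytes and less RNA of these genes per cardiomyocyte cannot be told apart.

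The first comparison asked how an untreated infarct changed these pathways in each zone. In the infarct zone 36 of 36 members fell, with a median log2 fold change of -1.64 (range -2.12 to -0.90), where 27.2% of 15758 genes tested fell and the median over all of them was -0.02. In the border zone 36 of 36 fell, with a median of -1.32 (-1.70 to -0.76), against 23.2% of all genes. In the remote zone 34 of 36 fell, with a median of -0.74 (-1.29 to -0.43), against 14.2% of all genes. All calls are edgeR quasi-likelihood tests with Benjamini-Hochberg adjusted p under 0.05. Without Sham animal 5 the remote count was 36 of 36 and the 3 medians were -1.79, -1.46 and -0.85, while the share of all genes that fell was 30.7%, 28.9% and 22.8%. In a single fit over all 9 groups the remote count was 8, where 8.83% of all genes were lower.

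**Figure D2:**
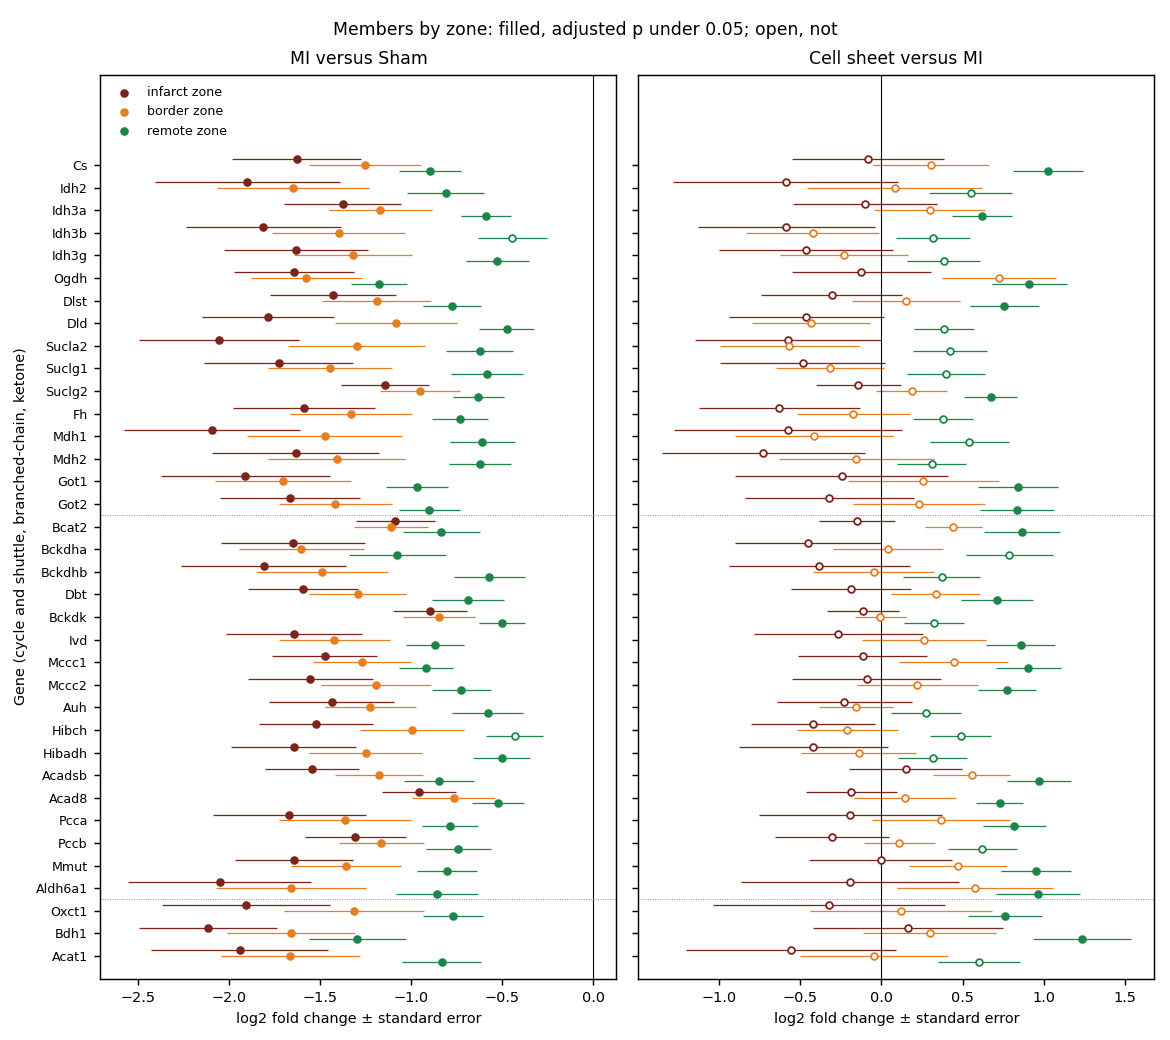
Log2 fold change with its standard error (x axis) for each of the 36 genes (y axis), MI versus Sham on the left and Cell sheet versus MI on the right, coloured by zone, with filled symbols for adjusted p under 0.05. All points on the left are below 0, and on the right only remote zone points are filled, 19 in number.

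The cycle is entered at citrate synthase, encoded by Cs, which joins acetyl-CoA to oxaloacetate. In the infarct zone the 6 sham animals had Cs between 475 and 1325 CPM (median 1171), and the 6 MI animals between 175 and 643 CPM (median 292). Sham and MI overlapped only through Sham animal 5, whose 475 CPM was the lowest sham value. The fall was -1.63 on the log2 scale (SE 0.35, adjusted p = 0.00349, edgeR). In the border zone it was -1.26 (SE 0.31, adjusted p = 0.00858), from a sham median of 1074 to an MI median of 478 CPM.

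Idh3a encodes the catalytic subunit of the NAD-dependent isocitrate dehydrogenase. Its infarct zone median was 262 CPM in sham animals (130 to 309) and 79.9 CPM in MI animals (52.3 to 180). Its fall of -1.38 (SE 0.32, adjusted p = 0.00495) stood beside those of its partner subunit Idh3b (-1.81, SE 0.43) and of Idh2 (-1.90, SE 0.51), the mitochondrial NADP-dependent enzyme.

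Next in the cycle, Ogdh encodes the first subunit of 2-oxoglutarate dehydrogenase, a rate-limiting complex. Ogdh stood at 1006 CPM in sham infarct zone tissue (396 to 1253) and at 248 CPM in MI (180 to 499). In the border zone the medians were 1018 and 368 CPM, and Ogdh fell by 1.57 on the log2 scale (SE 0.31, adjusted p = 0.00314, edgeR).

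Of the succinyl-CoA ligase genes, Sucla2, which encodes the ATP-forming subunit, fell by 2.05 on the log2 scale in the infarct zone (SE 0.44, adjusted p = 0.00323, edgeR), and Suclg2, the GTP-forming counterpart, fell by 1.14 (SE 0.24, adjusted p = 0.00308). This was the smallest fall among the 16 cycle genes in that zone. The largest was that of Mdh1, the cytosolic malate dehydrogenase of the malate-aspartate shuttle (-2.09, SE 0.49, adjusted p = 0.00473). Its mitochondrial counterpart Mdh2 had medians of 1278 CPM in sham (474 to 1439) and 302 CPM in MI (122 to 841), a fall of 1.63 on the log2 scale (SE 0.46, adjusted p = 0.0115).

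Got1, the cytosolic aspartate transaminase of the same shuttle, went from a median of 654 CPM (281 to 762) to 110 CPM (59.3 to 391) in the infarct zone. Border zone Got1 fell by 1.70 on the log2 scale (SE 0.37, adjusted p = 0.00543, edgeR), the largest fall of the 36 members there. The medians in that zone were 649 CPM in sham and 204 CPM in MI animals.

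Branched-chain amino acid oxidation begins with Bcat2, the mitochondrial transaminase. Its infarct zone level was 114 CPM in sham animals (53.3 to 127) and 45.7 CPM in MI animals (38.5 to 65.5), with a fall of 1.09 on the log2 scale (SE 0.22, adjusted p = 0.0023, edgeR). Bckdha, the E1 alpha subunit of the ketoacid dehydrogenase, went from 296 CPM (90.1 to 361) to 68.3 CPM (46.9 to 176), and its fold change was -1.65 (SE 0.40, adjusted p = 0.00559). The kinase that inhibits this complex, Bckdk, showed the smallest fall of all 36 members in the infarct zone (-0.90, SE 0.20, adjusted p = 0.00442), from a median of 166 CPM (86.4 to 181) to 73.3 CPM (63.4 to 119). Complex and kinase thus fell together.

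Farther along the valine, leucine and isoleucine branches all genes fell as well. Aldh6a1, the methylmalonate semialdehyde dehydrogenase of the valine branch, was the most strongly lowered gene of the pathway in the infarct zone (-2.05, SE 0.50, adjusted p = 0.00605). Acad8, the isobutyryl-CoA dehydrogenase, was among the least lowered (-0.96, SE 0.20, adjusted p = 0.00308). Mmut, the methylmalonyl-CoA mutase that delivers carbon to the cycle as succinyl-CoA, went from a median of 171 CPM (73.3 to 195) to 38.2 CPM (31.5 to 93.0). Acadsb, the short/branched-chain acyl-CoA dehydrogenase, was the single member whose 6 sham and 6 MI values did not overlap in the infarct zone. There 5.50% of all genes tested had groups apart and were lower in MI, and 14.2% had groups apart in either direction.

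Ketone oxidation had the largest median fall of the 3 pathways in each zone. Bdh1, which converts beta-hydroxybutyrate to acetoacetate, was at 99.99 CPM in sham infarct zone tissue (31.1 to 121) and at 19.8 CPM in MI (10.9 to 33.4). It was the most strongly lowered of all members there (-2.12, SE 0.38, adjusted p = 0.00134, edgeR) and in the remote zone (-1.29, SE 0.27, adjusted p = 0.0047). Oxct1, the succinyl-CoA transferase that activates acetoacetate, went from 3127 CPM (1346 to 3322) to 573 CPM (232 to 1553) in the infarct zone. Acat1, the mitochondrial thiolase that completes both ketone and isoleucine breakdown, went from 604 CPM (207 to 671) to 103 CPM (44.4 to 332).

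The remote septum showed the same direction for all 36 members with smaller differences. The strongest of the cycle was Ogdh, with 978 to 1631 CPM in sham (median 1502) and 521 to 857 CPM in MI (median 589), so that the groups did not overlap. Its fall of 1.18 on the log2 scale (SE 0.15, adjusted p = 0.00075, edgeR) was followed among all members, after Bdh1, by that of Bckdha (-1.07, SE 0.27, adjusted p = 0.0119). Mccc1, a subunit of the leucine branch carboxylase, was the other member with groups apart. Of all genes tested, 4.26% had groups apart and were lower in MI, and 8.26% had groups apart in either direction. Idh3b (-0.44, SE 0.19, adjusted p = 0.0993) and Hibch of the valine branch (-0.43, SE 0.16, adjusted p = 0.0582) missed the threshold, and without Sham animal 5 both passed it (-0.58 and -0.55).

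The difference between zones was itself tested, by the interaction of treatment and zone within animals. Between the infarct and the remote zone 23 of 36 members fell more in the infarct zone, where 15.3% of 16445 genes tested did so. Idh3a (-0.88, SE 0.28, adjusted p = 0.028), Got1 (-1.20, SE 0.39, adjusted p = 0.0322) and Acat1 (-1.38, SE 0.43, adjusted p = 0.0282) were among them. Cs (-0.82, SE 0.33, adjusted p = 0.076), Ogdh (-0.48, SE 0.30, adjusted p = 0.24) and Bcat2 (-0.24, SE 0.19, adjusted p = 0.358) were not. The count was 15 without Sham animal 1, 2 or 3 or without MI animal 6, and the shares of all genes in those fits are not given here. Border and remote zones differed for 0 members by edgeR (13 with unadjusted p under 0.05) and for 0% of all genes tested. When MI animal 5 was left out 7 members passed, and the share of all genes in that fit is not given here. Border and infarct zones differed for 0 members as well (0 with unadjusted p under 0.05, and 0% of all genes).

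The markers of cardiomyocytes moved with the members. All 10 contractile and calcium-handling markers fell in the infarct zone (median -1.76) and in the border zone (median -1.55), and 5 of 10 fell in the remote zone (median -0.60). Scores of myofibroblasts and macrophages were higher in MI, whereas median endothelial and mural scores were lower in each zone. In the infarct zone the endothelial score had a median of 7.60 in sham and 6.97 in MI, and the mural score 6.22 and 6.16. The myofibroblast score had a median of 4.76 in sham and 9.55 in MI infarct zone tissue, and 4.73 and 7.81 in the remote zone. The macrophage score had 5.35 and 7.18 in the infarct zone, and 4.85 and 6.55 in the remote zone. Over the 54 libraries Pearson's r between a member and the marker score ran from 0.77 to 0.97 with a median of 0.91, a description of libraries that share tissue and depth. With the marker score as a covariate, edgeR called 0 members in infarct tissue (10 with unadjusted p under 0.05), 0 in border tissue (9) and 2 in remote tissue, namely Ogdh (-0.64, SE 0.11, adjusted p = 0.00318) and Mccc1 (-0.37, SE 0.11, adjusted p = 0.0408). In these fits 0.971% of all genes were lower in infarct tissue, 1.91% in border tissue and 9.90% in remote tissue. The remote share is larger than these 2 of 36. The score and the treatment are themselves tied, and the part of cardiomyocytes, myofibroblasts and macrophages in these falls was not tested.

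**Figure D3:**
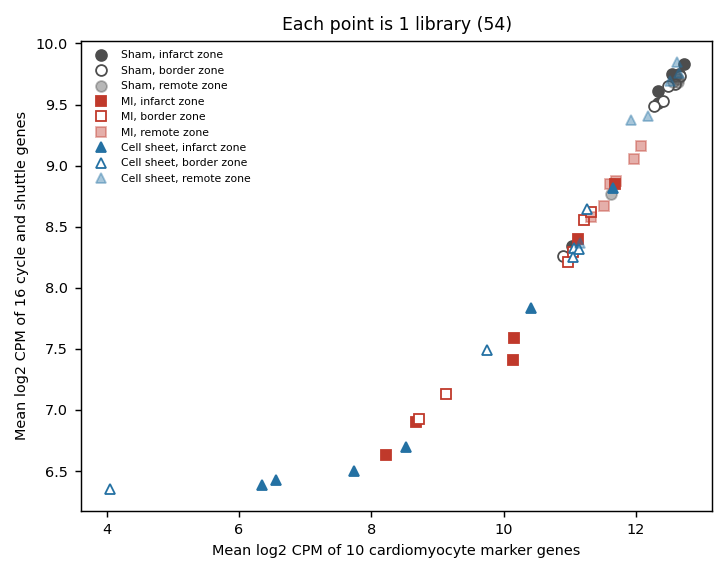
Mean log2 CPM of the 16 cycle and shuttle genes (y axis) against the mean log2 CPM of 10 cardiomyocyte marker genes (x axis), 1 point per library, 54 in all, with colour and shape for treatment and fill for zone. The points form 1 rising band that flattens where the marker score is lowest, down to 4.04 in the border library of Cell sheet animal 1.

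The other genes of these routes, from lists set beside the members, mostly fell in MI, and a few rose. Of 10 further cycle and carrier genes, 8 fell and 1 rose in the infarct zone of MI animals, with 8 and 1 in border tissue and 6 and 0 in remote tissue. The gene that rose in the infarct zone was Aco1, which encodes a cytosolic enzyme that is also an iron-regulatory protein, with a rise of 0.50 (SE 0.14, adjusted p = 0.011, edgeR). Idh1, the cytosolic counterpart of Idh2, had a value of 0.03 (SE 0.15). Of the 11 measured genes of the wider branched-chain list, 7 fell and 2 rose in the infarct zone. The risers were Slc7a5, the large neutral amino acid importer of the plasma membrane (1.44, SE 0.36, adjusted p = 0.0066), and Bcat1, the cytosolic transaminase (1.88, SE 0.66, adjusted p = 0.033).

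Bcat1 was the gene of these lists most altered by 1 sham animal. Its sham infarct zone values ran from 7.195 to 90.8 CPM with a median of 9.21, and the MI values from 45.4 to 139 CPM with a median of 77.0. The highest sham value was above the MI median. Without Sham animal 5 the rise of Bcat1 was 3.22 (SE 0.29) in infarct tissue, 3.20 (SE 0.36) in border tissue and 2.39 (SE 0.30, adjusted p = 4e-05, edgeR) in remote tissue, where the comparison with all animals gave 0.77 (SE 0.71, adjusted p = 0.45). Bcat2 and Bcat1 thus moved in opposite directions in the infarct zone with all animals and in all 3 zones without that animal.

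The ketone list held a similar pair. Acat2, the cytosolic thiolase that starts sterol synthesis, rose in the infarct zone (1.11, SE 0.21, adjusted p = 0.0016) and the border zone (0.84, SE 0.24, adjusted p = 0.016). Its levels were low, at 5.91 CPM in sham and 13.0 CPM in MI infarct zone tissue. Slc16a1, the monocarboxylate transporter that admits ketones, fell by 1.22 on the log2 scale in the infarct zone (SE 0.35, adjusted p = 0.012, edgeR).

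**Figure D4:**
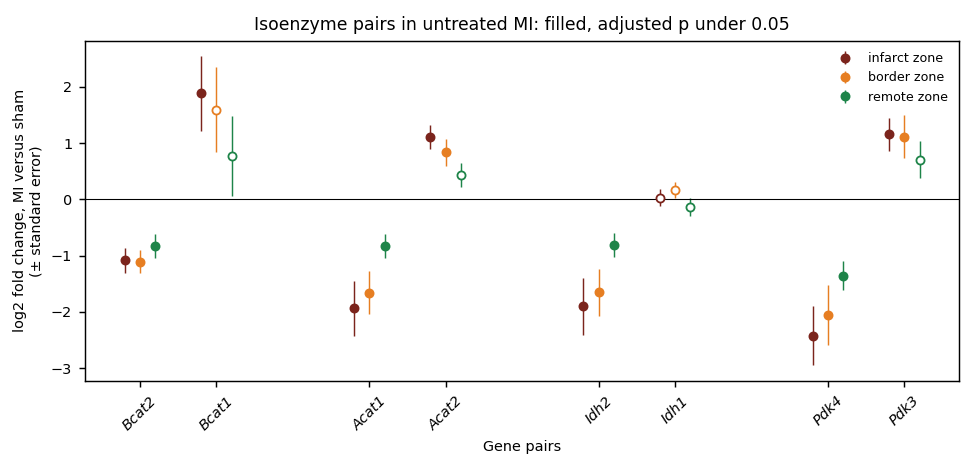
Log2 fold change of MI versus Sham with its standard error (y axis) for 4 gene pairs (x axis), coloured by zone, with filled symbols for adjusted p under 0.05. Bcat2, Acat1, Idh2 and Pdk4 lie below 0 in all 3 zones, and Bcat1, Acat2 and Pdk3 lie above 0 in all 3.

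At the entry of pyruvate, 14 of 16 genes fell and 1 rose in the infarct zone. Among the kinases that switch off pyruvate dehydrogenase, Pdk4 fell by 2.43 on the log2 scale (SE 0.53, adjusted p = 0.0035, edgeR), Pdk2 by 2.02 (SE 0.46) and Pdk1 by 1.91 (SE 0.44), whereas Pdk3 rose by 1.15 (SE 0.29, adjusted p = 0.0067). Of the 11 transcriptional regulators, 9 fell in infarct tissue, 9 in border tissue and 8 in remote tissue. The coactivator Ppargc1b (-1.91, SE 0.24, adjusted p = 0.00016), the muscle regulator Perm1 (-2.59, SE 0.73) and the orphan receptor Esrra (-1.33, SE 0.26) were among them, and Nrf1 (0.23, SE 0.09, adjusted p = 0.052) and Gabpa (-0.18, SE 0.08, adjusted p = 0.081) were not.

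Since these regulators act through DNA motifs, the letters of the promoters were searched on both strands, in the stretch from 250 bases before to 50 bases after each start (RefSeq, GRCr8), which was at hand for 33 of the 36 members. A member was counted once if any of its promoters held the motif, whereas the share over all promoters counted each promoter. The receptor motif AAGGTCA was found in 0 of 33 members, against 4.61% of 33469 promoters, and its longer form TNAAGGTCA in 0, against 1.2%. The NRF1 motif, GCGCA and GCGC with any base between them, was found in 3 of 33 members, 9.09% (Dld, Sucla2 and Hibadh), against 4.25% of all promoters. The stretches around the motif in Sucla2 (chr15:55161843-55161876, plus strand) and Hibadh (chr4:83077882-83077915, minus strand), genes of the cycle and of valine oxidation, are shown as read along the gene, with the motif, here on the opposite strand, in capitals:
Sucla2: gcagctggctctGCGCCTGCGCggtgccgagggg
Hibadh: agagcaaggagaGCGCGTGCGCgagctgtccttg
A match of letters is not evidence of binding. Sucla2 and Hibadh fell with the other members in each zone.

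The second comparison asked what the cell sheet changed relative to untreated MI. In the infarct zone 0 of 36 members passed the test by edgeR (0 with unadjusted p under 0.05, and 0 by DESeq2), as did 0 of 16196 genes tested (0%). The median log2 fold change was -0.29 (-0.73 to 0.16), and standard errors reached 0.71. This median rested on single animals. It was -0.81 without Cell sheet animal 6 (15 members with unadjusted p under 0.05), 0.05 without MI animal 1, -0.13 without MI animal 3, and -0.16, -0.12, -0.13 and -0.14 without Cell sheet animals 1, 2, 3 and 4, with 0 members called by edgeR in each. Oxct1 had 232 to 1553 CPM in MI (median 573) and 129 to 1935 CPM with the cell sheet (median 247). The Cell sheet range enclosed the MI range. Animal 6 was highest of its group for 36 of 36 members while animals 2, 3 and 4 held all the lowest values. Animal 6 also had the highest cardiomyocyte score of its group (11.65) and a skeletal muscle marker score (6 genes) of 5.33, and animal 2 had a skeletal muscle score of 3.75, against 0.02 to 0.19 in the other 4 and at most -0.02 in MI animals. The part of skeletal muscle in these values was not tested. Cs was at 292 CPM in MI and 200 CPM with the cell sheet (176 to 840), a difference of -0.08 (SE 0.47, adjusted p = 0.973).

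In the border zone 0 of 36 members passed by edgeR (2 with unadjusted p under 0.05, Bcat2 and Acadsb, and 0 by DESeq2), where 18% of 16272 genes tested did. The median was 0.13 (-0.57 to 0.72). Ogdh had a median of 368 CPM in MI (171 to 409) and 565 CPM with the cell sheet (171 to 811), a difference of 0.72 (SE 0.35, adjusted p = 0.178). Without Cell sheet animal 1, the library with almost no contractile transcripts, Ogdh (0.91, SE 0.28, adjusted p = 0.042) and Bcat2 (0.54, SE 0.15, adjusted p = 0.032) passed the test and were higher with the cell sheet, 2 of 36 where 8.86% of all genes tested were higher. The Cell sheet border libraries also varied in fat, with an adipocyte marker score from -2.50 to 5.94 (median 4.33) against -2.42 to 1.93 in MI, and the part of fat in these values was not tested. With the cardiomyocyte score as a covariate 9 members passed, all higher with the cell sheet, where 13.6% of all genes were higher. Of these members, Ogdh (0.86, SE 0.15, adjusted p = 0.00205) and Bcat2 (0.51, SE 0.12, adjusted p = 0.00905) had the lowest p. This fit included the border library of Cell sheet animal 1, whose score was 4.04. The rest of its group had 9.76 to 11.26, and MI animals had 8.72 to 11.32. How far the 9 calls rest on that library was not tested.

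With infarct and border libraries of each animal summed, 0 of 36 members passed by edgeR (0 with unadjusted p under 0.05, and 0 by DESeq2), against 12.1% of 17985 genes. The median was -0.06 (-0.57 to 0.38).

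Around the members, the border zone held a change at the carboxylation of pyruvate. Pc, the pyruvate carboxylase that refills the cycle and also serves fat synthesis, was at 23.9 CPM in MI (15.0 to 24.9) and at 61.1 CPM with the cell sheet (28.3 to 206). The 6 Cell sheet values all lay above the 6 MI values, as they did for 4.71% of all genes tested. Pc rose by 1.90 on the log2 scale (SE 0.44, adjusted p = 0.011, edgeR), with 1.93 (SE 0.46) when Cell sheet animal 1 was left out. Aco1 rose by 0.63 (SE 0.14, adjusted p = 0.0099), and Tfam, which maintains mitochondrial DNA, fell by 0.58 on the log2 scale (SE 0.17, adjusted p = 0.033). Of 6 adipocyte markers 5 were tested, with values from 1.11 to 6.34, and 2 of them passed, where 8.47% of all genes tested rose. The part of fat in these values was not tested.

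In the remote zone, 19 of 36 members rose with the cell sheet, against 10.3% of 15374 genes tested, 7 of the cycle, 10 of the branched-chain route and 2 of ketone oxidation. No member fell. The median log2 fold change was 0.69 (0.27 to 1.23), against 0.01 over all genes tested. The other 17 members had values from 0.27 (Auh) to 0.79 (Bckdha) that did not pass.

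The 3 largest rises were those of Bdh1, Cs and Acadsb. Bdh1 had 34.6 to 63.7 CPM in MI (median 39.3) and 36.1 to 169 CPM with the cell sheet (median 92.0), a rise of 1.23 (SE 0.30, adjusted p = 0.0194, edgeR). Cs had 505 to 814 CPM in MI (median 644) and 687 to 1703 CPM with the cell sheet (median 1387), a rise of 1.02 (SE 0.21, adjusted p = 0.0115). Acadsb rose by 0.97 (SE 0.20, adjusted p = 0.0104). In Cs and Bdh1 the groups overlapped through Cell sheet animal 1, the only Cell sheet animal within the MI range of Cs. Bdh1 also had the widest spread of the Cell sheet animals, and the medians of its 3 groups were 123, 39.3 and 92.0 CPM in sham, MI and Cell sheet animals.

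**Figure D5:**
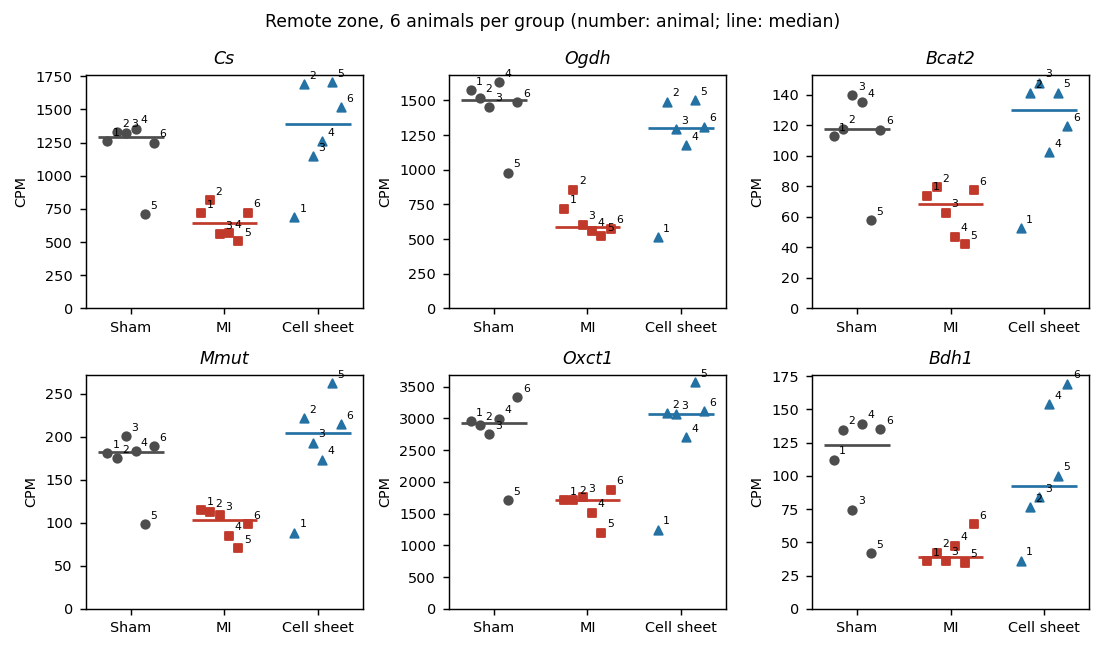
CPM (y axis, from 0) of 6 members in the remote zone for the 6 animals of each group (x axis), numbered by animal within its group, with lines at the medians. The Cell sheet median lies above the sham median for Cs, Bcat2, Mmut and Oxct1, at 86.6% of it for Ogdh and at 74.6% for Bdh1. Cell sheet animal 1 and Sham animal 5 lie among or near the MI animals.

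Of the 16 cycle genes, Cs, Idh3a, Ogdh, Dlst, Suclg2, Got1 and Got2 rose. Ogdh went from a median of 589 CPM in MI to 1302 CPM with the cell sheet (514 to 1502), a rise of 0.91 (SE 0.23, adjusted p = 0.0219). Got1 went from 346 to 739 CPM (297 to 889), a rise of 0.84 (SE 0.25, adjusted p = 0.0355). The other 9, Idh2, Idh3b, Idh3g, Dld, Sucla2, Suclg1, Fh, Mdh1 and Mdh2, did not pass, with values from 0.31 (Mdh2) to 0.55 (Idh2). Mdh2 (SE 0.21, adjusted p = 0.318) had medians of 790 CPM in MI and 1119 CPM with the cell sheet.

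In branched-chain oxidation the rises covered the transaminase Bcat2 (0.87, SE 0.23, adjusted p = 0.0268), the Dbt subunit of the ketoacid dehydrogenase (0.71, SE 0.22, adjusted p = 0.043), Ivd and both Mccc1 and Mccc2 of the leucine branch, Acadsb, Acad8, Pcca, Mmut and Aldh6a1. Bcat2 had 42.0 to 79.5 CPM in MI (median 68.3) and 52.7 to 148 CPM with the cell sheet (median 130). Mmut had a median of 104 CPM in MI and 204 CPM with the cell sheet (88.4 to 263). Bckdha (0.79, SE 0.27, adjusted p = 0.0584) and its kinase Bckdk (0.32, SE 0.18, adjusted p = 0.225) did not pass. Of the ketone genes, Oxct1 rose by 0.76 (SE 0.23, adjusted p = 0.0377), from a median of 1714 to 3069 CPM, and Acat1 had 0.60 (SE 0.25, adjusted p = 0.11).

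This count depended on single animals. Without Cell sheet animal 1, 36 of 36 members rose with a median of 0.82 (0.43 to 1.41), and the share of all genes tested that rose went to 20.8%. The count was between 8 and 12 when MI animal 3 (12), 4 (11) or 5 (8), or Cell sheet animal 2 (10), 3 (11) or 5 (9), was left out instead. The shares of all genes in those fits are not given here. Every one of the fits with 1 animal left out kept a positive median. A single fit over all 9 groups called 7 members, where 8.62% of all genes were higher and 6.00% lower.

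The 10 cardiomyocyte markers had a median change of 0.42 in the same comparison, and 2 of them rose. The marker score was 11.33 to 12.07 in MI, 11.16 to 12.66 with the cell sheet and 11.63 to 12.64 in sham animals. With this score as a covariate, 7 members rose, where 4.62% of all genes did, Cs (0.57, SE 0.10, adjusted p = 0.00787), Mccc1, Mccc2, Acad8, Acadsb, Pcca and Mmut, all but Cs from the branched-chain route. With the adipocyte score as a covariate 7 members rose as well, where 4.87% of all genes did. Macrophage and myofibroblast scores went the other way, with medians of 6.55 and 7.81 in MI and of 5.06 and 6.22 with the cell sheet, and their part in the result was not tested.

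Other genes of the routes moved in the same zone. Of 10 further cycle and carrier genes 6 rose, among them Sdha, the flavoprotein of succinate dehydrogenase (1.03, SE 0.21, adjusted p = 0.011), and Slc25a12, an aspartate-glutamate carrier (0.99, SE 0.19). Of 11 regulators 6 rose, namely Ppargc1b (1.28, SE 0.25, adjusted p = 0.0096), Ppara (1.19, SE 0.24), Klf15, a regulator of branched-chain amino acid breakdown (1.16, SE 0.28), Perm1 (1.06, SE 0.29), Esrrb (0.93, SE 0.24) and Esrra (0.87, SE 0.23). Bcat1 had -0.95 (SE 0.61, adjusted p = 0.28) with all animals and fell by 2.07 on the log2 scale (SE 0.35, adjusted p = 0.00068, edgeR) without Cell sheet animal 1. Without that animal Slc7a5 fell by 1.06 (SE 0.19, adjusted p = 0.00084) and Pdk3 fell by 1.03 (SE 0.20, adjusted p = 0.0013).

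The same interaction was tested for Cell sheet versus MI. For 0 of 36 members was the remote effect larger than the infarct zone effect at the threshold (16 with unadjusted p under 0.05), as for 0% of all genes tested, although all 36 estimates were below 0. The estimate for Cs was -1.19 (SE 0.48, adjusted p = 0.163). Without Cell sheet animal 1, 3 of 36 members passed. In that fit 3.82% of all genes tested passed with an estimate below 0 and 7.98% with one above 0. The remote effect against the border effect gave 0 members (1 with unadjusted p under 0.05), and the border effect against the infarct zone effect gave 0 (1 with unadjusted p under 0.05). The rise in the septum is therefore not shown to be particular to that zone.

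The third comparison set Cell sheet animals beside sham animals, the same sham libraries as above. In the infarct zone 36 of 36 members were lower with the cell sheet than in sham, with a median of -1.95 (-2.67 to -1.01), against 29.2% of all genes tested. Mdh1 (-2.67, SE 0.65, adjusted p = 0.00456), Sucla2 (-2.63, SE 0.51, adjusted p = 0.00135) and Acat1 (-2.50, SE 0.57, adjusted p = 0.0034) were lowest. The corresponding values of untreated MI were -2.09, -2.05 and -1.94. The cardiomyocyte score had a median of 8.14 with the cell sheet and 12.44 in sham animals, the myofibroblast score 10.01 and 4.76, and the macrophage score 7.88 and 5.35. With the cardiomyocyte score as a covariate edgeR called 0 members (9 with unadjusted p under 0.05), where 2.05% of all genes were lower. The part of these cell types in the result was not tested.

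In the border zone 32 of 36 members were lower, with a median of -1.22 (-1.92 to -0.65), against 23.2% of all genes tested. Mdh1 (-1.92, SE 0.42, adjusted p = 0.00314), Sucla2 (-1.89, SE 0.37, adjusted p = 0.00164) and Idh3b (-1.85, SE 0.36, adjusted p = 0.00156) had the largest falls. Sucla2 and Idh3b were the members whose 2 groups did not overlap. Of all genes tested, 9.89% had groups apart and were lower with the cell sheet, and 19.6% had groups apart in either direction. Ogdh (-0.88, SE 0.37, adjusted p = 0.068), Oxct1 (-1.22, SE 0.51, adjusted p = 0.0719), Acad8 (-0.65, SE 0.29, adjusted p = 0.0839) and Aldh6a1 (-1.12, SE 0.44, adjusted p = 0.0546) did not pass. Without Sham animal 5 all 36 passed, where 28.7% of all genes were lower, and without Cell sheet animal 1 the count was 30, where 21.8% were. The adipocyte score had a median of 4.33 with the cell sheet and -2.11 in sham animals, and the cardiomyocyte score 11.06 and 12.44. With the adipocyte score as a covariate edgeR called 0 members (6 with unadjusted p under 0.05), and with the cardiomyocyte score 17. The latter fit included Cell sheet animal 1, whose cardiomyocyte score was 4.04, against 10.90 to 12.67 in sham animals. How far the 17 calls rest on that library was not tested. The part of fat and of cardiomyocyte number in the border zone result was not tested.

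In the remote zone 0 of 36 members differed between Cell sheet and sham animals by edgeR (0 with unadjusted p under 0.05, and 0 by DESeq2), where 0.0066% of 15157 genes tested differed. The median was -0.07 (-0.36 to 0.20), and standard errors ran up to 0.36. Cs was at 1292 CPM in sham (709 to 1356) and 1387 CPM with the cell sheet, a difference of 0.12 (SE 0.22). Oxct1 was at 2923 CPM (1713 to 3328) and 3069 CPM (1243 to 3566). Over the members the Cell sheet median lay at 74.6% to 115% of the sham median, above it for 16 genes and below it for 20, and the MI median lay at 31.8% to 71.6%. Leaving out both Sham animal 5 and Cell sheet animal 1, chosen after the values were seen, gave 0 members called, 8 with unadjusted p under 0.05 and a median of -0.05. A p that misses the threshold does not show that the groups are alike.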

How the data were processed

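Poly(A) RNA was sequenced on a NovaSeq, and reads were aligned with STAR to the rat genome mRatBN7.2. The authors deposited raw gene counts for each of the 54 libraries, and their processing notes name DESeq2. Which program counted the reads, and with what strand setting, is not given in the sources used here, so that overlapping genes cannot be told apart, and how reads of the human cells were treated is likewise not given. The 5 summary lines that name no gene were left out, and they held 17.0% to 42.8% of each library's total.

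From the counts, genes were filtered with filterByExpr, scaled by TMM factors and tested in edgeR 4.0.16 (R 4.3.3, limma 3.58.1) by quasi-likelihood F tests over the libraries of the 2 groups compared, with Benjamini-Hochberg adjustment over all genes tested and a threshold of 0.05. Standard errors were derived from the F statistic. Levels are CPM with TMM factors over all 54 libraries, and log2 CPM used a prior count of 2. Differences between zones were tested as interactions with the animal as a block, because the 3 zones come from the same heart: deviations of libraries of 1 animal correlated above 0.1 in 38 of 54 pairs. The fits were tested on simulated data. DESeq2 1.42.0, other filters and scalings, marker scores as covariates, a replicate block and the omission of each animal were tried as alternatives.

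The 36 genes, the neighbouring lists and the marker lists were chosen with earlier results of these data known. All 36 could be named. Levels by group were given for 12 genes set by role, and for each comparison the 3 largest falls and rises among the calls were named with the members that missed the threshold. Genes of the neighbouring lists were named where they were called with a log2 fold change beyond 1 or where their list was described. No 2 libraries of a group were alike within sampling noise (chi-square per degree of freedom 7.97 to 539 over 135 pairs). Results for 2 genes of the neighbouring lists are not reported here.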

Additional observations from a re-analysis of the deposited data

Results flagged for a closer look

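For 12 genes and 3 pathway means in the 9 groups of 6 libraries, 135 sets of values were examined. Of these, 42 held a library far from the other 5 by Dixon's ratio (critical value 0.625). Chance alone gives about 1 in 20 for independent sets, but these sets share libraries and genes, so that the 42 cannot be judged against it. Sham animal 5 was the low library in most of the 42.

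In its border zone library Cs was at 436 CPM, Mdh2 at 473, Got1 at 260.4, Bcat2 at 48.1, Bckdha at 92.7, Bckdk at 80.0, Mmut at 61.7, Oxct1 at 1151 and Acat1 at 193 CPM. In its infarct zone library Cs was at 475 CPM, Mdh2 at 474, Bckdha at 90.1, Mmut at 73.3, Oxct1 at 1346 and Acat1 at 207 CPM. In its remote zone library Cs was at 709 CPM, Idh3a at 221, Ogdh at 978, Mdh2 at 736, Got1 at 467, Bcat2 at 58.0, Bckdha at 99.8, Bckdk at 123, Mmut at 98.5, Oxct1 at 1713 and Acat1 at 259 CPM. Its mean log2 CPM in the infarct, border and remote zones was 8.35, 8.26 and 8.77 for the cycle, 6.13, 6.02 and 6.41 for branched-chain oxidation and 7.68, 7.58 and 8.05 for ketone oxidation.

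Cell sheet animal 1 was the low library of its group in the remote zone, with Ogdh at 514 CPM, Oxct1 at 1243 CPM and mean log2 CPM of 8.37 for the cycle, 6.19 for branched-chain oxidation and 7.66 for ketone oxidation. Cell sheet animal 6 was the high library of its group in the infarct zone, with Cs at 840 CPM and Bdh1 at 80.3 CPM.

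The difference of MI from sham was larger in the infarct than in the remote zone by the interaction test for 23 members. Among the 12 genes these were Idh3a (-0.88), Mdh2 (-1.25), Got1 (-1.20), Mmut (-0.93), Oxct1 (-1.43) and Acat1 (-1.38), as differences of log2 fold changes.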

How the results depend on the processing

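Counts of members called below are out of 36. With the cardiomyocyte score as a covariate, MI versus Sham gave 0 in infarct (10 with unadjusted p under 0.05), 0 in border (9) and 2 in remote tissue. Cell sheet versus MI gave 9 in the border and 7 in the remote zone. With both injured zones summed it gave 9, all higher except Sucla2 (-0.30, SE 0.09), where 9.93% of all genes were higher and 9.96% lower. Cell sheet versus Sham gave 0 (9) in the infarct and 17 in the border zone. The border fits with Cell sheet animals included Cell sheet animal 1, whose score of 4.04 was the lowest in them by far. With the adipocyte score, Cell sheet versus MI gave 1 in the border zone (5.78% of all genes higher) and 7 in the remote zone. Cell sheet versus Sham gave 0 (6) in the border zone (4.81% of all genes lower). With all 9 groups in a single fit the remote zone gave 8 for MI versus Sham (8.83% of all genes lower) and 7 for Cell sheet versus MI (8.62% of all genes higher). Requiring an absolute log2 fold change above 1 left 3 and 2. Scaling by library size alone gave 1 for Cell sheet versus MI and 21 for Cell sheet versus Sham in the border zone, reversed 0 member calls, and turned the calls over all genes for MI versus Sham in the infarct zone from 3580 higher and 4286 lower into 5587 and 2735, with a shift of 0.26 in the median of all genes.

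The replicate number did not pair animals (correlations from -0.81 to 0.67, 19 of 54 above 0.1). With it as a replicate block, Cell sheet versus MI in the remote zone gave 0 (21 with unadjusted p under 0.05). In that fit 0.0065% of all genes were higher and 0.0065% lower. Without the animal block, the infarct minus remote difference of MI versus Sham gave 1, where 5.08% of all genes were lower and 3.62% higher.

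Leaving out 1 animal at a time gave 36 to 36, 35 to 36 and 25 to 36 in infarct, border and remote tissue for MI versus Sham. Cell sheet versus MI gave 0 to 2 in the border zone (2 without Cell sheet animal 1) and 8 to 36 in the remote zone, and Cell sheet versus Sham gave 22 to 36 in the border zone. The zone differences of MI versus Sham ranged from 15 to 32 (infarct minus remote) and from 0 to 7 (border minus remote, 7 without MI animal 5), and that of Cell sheet versus MI from 0 to 3 (infarct minus remote). The causes of these shifts were not tested. Shares of all genes are given above for only some of these fits. DESeq2 gave 36, 36 and 35 for MI versus Sham, where 30.7%, 27.2% and 16.1% of all genes were lower. For Cell sheet versus MI it gave 0, 0 and 21, where 0.358%, 11.9% and 13.6% of all genes were higher. The shares lower were 0.167%, 12.3% and 11.2%. With both injured zones summed it gave 0, where 9.06% of all genes were higher and 9.42% lower. For Cell sheet versus Sham it gave 36, 35 and 0, where 33.2%, 26.6% and 0.739% of all genes were lower.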
